A study of Mus musculus with 4 samples.

Results

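Complement genes were read as 9 members, 6 components (C1ra, C1s1, C2, C4b, Cfb and C3) and 3 regulators (Serping1, Cd55 and Cd59a), out of 55487 genes counted. They were chosen by name, with earlier results of these data known. Each symbol matched 1 Ensembl gene of the GENCODE M21 annotation (GRCm38). All 9 had enough reads to be tested. The RNA came from skeletal stem cells of wild-type mice, sorted by flow cytometry from the metaphysis of long bones after collagenase digestion. A total of 2 libraries came from sham-operated mice and 2 from ovariectomized mice. All 4 carry the time 8 weeks, with no word on whether this is age or time after surgery. Removing the ovaries takes away most circulating oestrogen and is commonly used in mice to model bone loss after menopause. Strain, age and any pooling of mice are not stated in the labels. It is also not stated that libraries of a group came from separate animals, so p-values may measure technical spread alone.

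Complement is a cascade of plasma proteins that tags and lyses targets. In the classical pathway the proteases C1r and C1s, held by C1q, cleave C4 and C2, whose fragments form an enzyme that cleaves C3. In the alternative pathway factor B takes the place of C2, and C3 itself that of C4. Regulators hold the cascade back. C1 inhibitor, the product of Serping1, blocks C1r and C1s. CD55, or decay-accelerating factor, takes apart the enzymes that cleave C3, and CD59 blocks assembly of the final pore. The liver makes most plasma complement, but stromal cells of bone and marrow also make components, C3 among them.

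The libraries held between 18291436 and 23721078 counts. Levels are CPM, counts relative to the library total after TMM scaling, and 1 count was worth between 0.0423 and 0.0519 CPM. Of 17120 genes tested with edgeR's quasi-likelihood test, 716 (4.18%) changed at an adjusted p under 0.05, 510 higher and 206 lower after ovariectomy. Higher genes were 71.2% of the calls, and 82.2% with library totals as the only scaling, which shifted the median gene by 0.11 log2 units. Of the antigens selected for, Itgav (CD51) was at 67.3 to 72.0 CPM, and Cd200 was lower after ovariectomy, at 237 and 305 CPM in the sham pair against 173 and 155 CPM in the ovariectomy pair (edgeR adjusted p = 0.0462). Of those selected against, 4 were tested and none was called. Eng (CD105) was at 21.6 and 52.1 CPM in the sham pair against 75.2 and 83.1 CPM in the ovariectomy pair, and Enpep (6C3) at 1.52 and 1.91 against 4.40 and 3.64 CPM, with no overlap for either. Tek (Tie2) was at 0.223 and 5.52 CPM in the sham pair against 7.53 and 9.76 CPM in the ovariectomy pair, also without overlap. Thy1 (CD90), not tested, was at or below 0.211 CPM. Ptprc (CD45), whose groups overlapped, was below 10 CPM in every library. The part of these antigens in the complement values was not tested.

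Among the 9 members, 3 were higher after ovariectomy, namely Serping1, Cd55 and C1ra (2.98% of all genes tested were called higher), and 1 was lower, C4b (1.20% of all genes). The other 5 did not pass. Both ovariectomy libraries lay above both sham libraries for 6 members (25.5% of all genes) and below them for C4b (23.9% of all genes). The median log2 fold change of the 9 was 1.37, against -0.02 over all genes tested. All 4 calls were lost without ovariectomy 1 and without ovariectomy 2 (edgeR adjusted p between 0.187 and 0.320), where the spread comes from the sham pair alone and no gene of the table was called. The fold changes of the called members lay between 0.440 and 12.8 with any 1 library left out, and none changed direction.

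**Figure D1:**
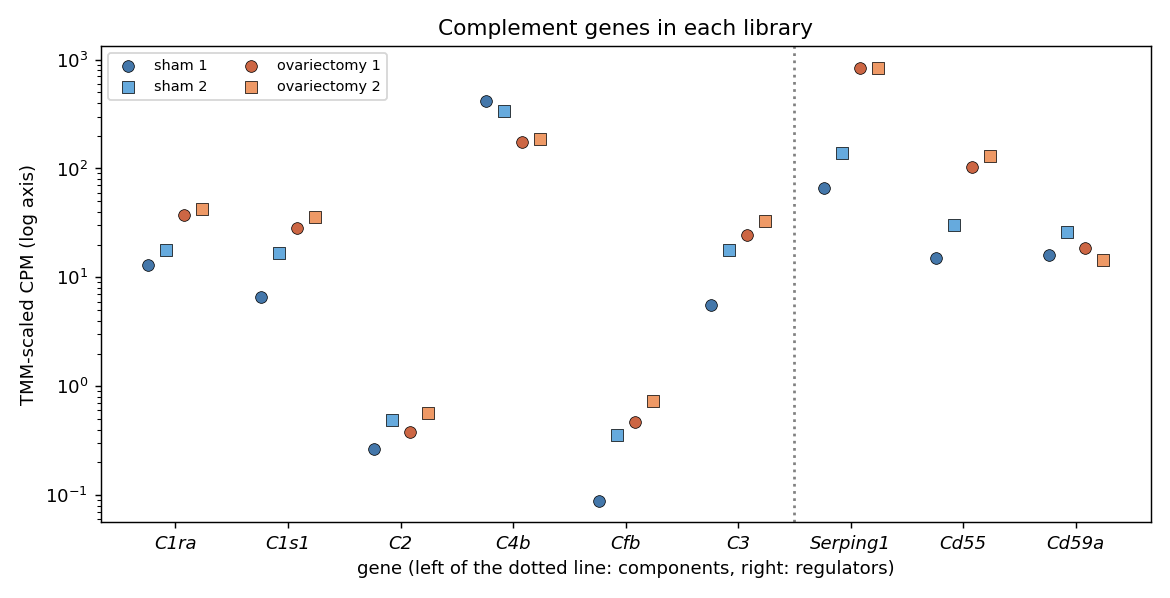
TMM-scaled CPM (log axis) of the 9 complement genes in each of the 4 libraries, 1 point per library, components left of the dotted line and regulators right of it. Serping1 and Cd55 are higher and C4b is lower in both ovariectomy libraries, while the libraries overlap for C2 and Cd59a.

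The regulator Serping1 (ENSMUSG00000023224, chromosome 2, 84765387 to 84775444, minus strand) had the largest fold change of the 9 members. Its level was 66.1 and 138 CPM in sham 1 and 2, and 845 and 834 CPM in ovariectomy 1 and 2. The ovariectomy pair lay close together, far above a sham pair that differed 2.10-fold within itself. Serping1 rose 8.21-fold (log2 fold change 3.04 ± 0.32 SE, edgeR adjusted p = 0.00459). The fold was 6.08 without sham 1 and 12.8 without sham 2. Serping1 ranked 320 of 17120 by fold change, and its level passed from percentiles 88.6 and 95.2 of all genes tested in sham to 99.33 and 99.35 in the ovariectomy libraries. No stretch of 50 bases in its transcripts occurred in the transcripts of another gene.

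Cd55 (ENSMUSG00000026399, chromosome 1, 130439027 to 130462744, minus strand) was at 15.2 and 30.5 CPM in the sham pair against 103 and 131 CPM in the ovariectomy pair. The groups did not overlap, and sham 2 was again the higher of the sham pair. It rose 5.11-fold (log2 fold change 2.35 ± 0.31 SE, edgeR adjusted p = 0.00895), or 3.83-fold without sham 1 and 7.76-fold without sham 2. The adjacent copy Cd55b, which holds 8% of the 50-base stretches of Cd55, had between 0 and 3 counts per library.

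Cd59a (ENSMUSG00000032679, chromosome 2, 104095801 to 104115354, plus strand), the third regulator, was not called. Its level was 16.1 and 26.0 CPM in the sham pair against 18.8 and 14.4 CPM in the ovariectomy pair, so the groups overlapped. The log2 fold change was -0.34 ± 0.28 SE (edgeR adjusted p = 0.611), with the opposite sign once sham 2 was left out. The neighbouring copy Cd59b was at 1.07 and 1.11 CPM in the sham pair against 1.82 and 1.25 CPM in the ovariectomy pair. Within the membrane regulators, the ratio of Cd55 to Cd59a per kb of exon was 0.350 and 0.438 in the sham pair but 2.04 and 3.39 in the ovariectomy pair, so the order of the pair turned over.

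The protease genes of the classical pathway had fold changes of similar size. C1ra (ENSMUSG00000055172, chromosome 6, 124512405 to 124523443, plus strand) was at 13.1 and 17.8 CPM in the sham pair against 37.5 and 42.5 CPM in the ovariectomy pair, and rose 2.59-fold (log2 fold change 1.37 ± 0.21 SE, edgeR adjusted p = 0.0148). C1s1 (ENSMUSG00000038521, chromosome 6, 124530345 to 124542359, minus strand), its convergent neighbour, was at 6.60 and 16.9 CPM in the sham pair against 28.6 and 36.1 CPM in the ovariectomy pair. The C1s1 groups did not overlap either, but sham 2 stood 2.56-fold above sham 1. Its log2 fold change of 1.46 ± 0.40 SE did not pass (edgeR adjusted p = 0.101). Nor did C1s1 pass with library totals (edgeR adjusted p = 0.0640) or upper-quartile scaling (0.0957). It passed with the DESeq2 test (0.00172), with limma-voom (0.0304) and at a mean of at least 5 CPM (0.0284). The log2 fold change was 0.94 without sham 1 and 2.30 without sham 2, where the spread comes from the ovariectomy pair alone.

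Per kb of exon, C1ra over C1s1 was 2.08 and 1.11 in the sham pair and 1.37 and 1.23 in the ovariectomy pair, so sham 1 stood apart from the other 3. Serping1, whose product blocks both proteases, was 4.38 and 5.25 times their sum per kb in the sham pair and 16.7 and 13.9 times in the ovariectomy pair. The copies C1rb and C1s2, which hold 48% and 21.8% of the 50-base stretches of C1ra and C1s1, had at most 8 and 5 counts. C1s1 shares 18.4% of its exon length with other genes, here the antisense gene Gm16567. How the authors' counting treated reads that match more than 1 gene is not stated, and levels of such genes carry that uncertainty.

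C4b (ENSMUSG00000073418, chromosome 17, 34728380 to 34743882, minus strand), the substrate of C1s, was the member that fell. It was at 414 and 335 CPM in the sham pair against 175 and 187 CPM in the ovariectomy pair, with no overlap. This was a 2.07-fold decrease (log2 fold change -1.05 ± 0.14 SE, edgeR adjusted p = 0.00838). C4b held 94.2% and 86.2% of the summed CPM of the 6 components in sham, and 65.7% and 62.2% in ovariectomy libraries. Its copy C4a holds 34.6% of the 50-base stretches of C4b, and was at 0.268 and 0.356 CPM in the sham pair against 0.761 and 0.831 CPM in the ovariectomy pair, not called (edgeR adjusted p = 0.584).

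C3 (ENSMUSG00000024164, chromosome 17, 57203970 to 57228136, minus strand), where the pathways meet, was at 5.62 and 17.9 CPM in the sham pair against 24.5 and 33.3 CPM in the ovariectomy pair. The sham pair differed 3.19-fold, and sham 2 came close to ovariectomy 1. The log2 fold change of 1.29 ± 0.48 SE did not pass (edgeR adjusted p = 0.205). It lay between 0.69 without sham 1 and 2.37 without sham 2. C3 passed with the DESeq2 test (adjusted p = 0.0256) but not with limma-voom (0.0757). C4b over C3 per kb of exon was 66.5 and 16.9 in the sham pair and 6.44 and 5.06 in the ovariectomy pair.

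The cleaving subunits that pair with C4 and C3 had counts close to the limit of detection. C2 (ENSMUSG00000024371, chromosome 17, 34862604 to 34898265, minus strand) had 6 and 11 counts in the sham pair and 9 and 11 in the ovariectomy pair, a ratio of 1.23 (exact 95% interval 0.612 to 2.50). Cfb (ENSMUSG00000090231, chromosome 17, 34856374 to 34862518, minus strand), or factor B, had 2 and 8 counts in the sham pair and 11 and 14 in the ovariectomy pair, a ratio of 2.62 (1.21 to 6.10). Neither passed (edgeR adjusted p = 0.935 and 0.641), the intervals cover counting error only, and the sign of C2 turned without sham 1. Cfb shares 79.5% of its exon length and C2 46.9% with other genes, chiefly Gm20547, which spans both on the same strand and is listed with 0 counts in all 4 libraries. Reads in the shared exon may be missing from these counts, so C2 and Cfb may be undercounted, which was not tested. With all counts of the gene divided by the exon length that no other gene shares, Cfb was at 0.154 and 0.615 CPM per kb in the sham pair. In the ovariectomy pair it was at 0.803 and 1.26 CPM per kb. This measure is too high if any counted read lay in shared exon, which was not tested. C2 was at 0.130 to 0.278 CPM in the 4 libraries on that measure.

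**Figure D2:**
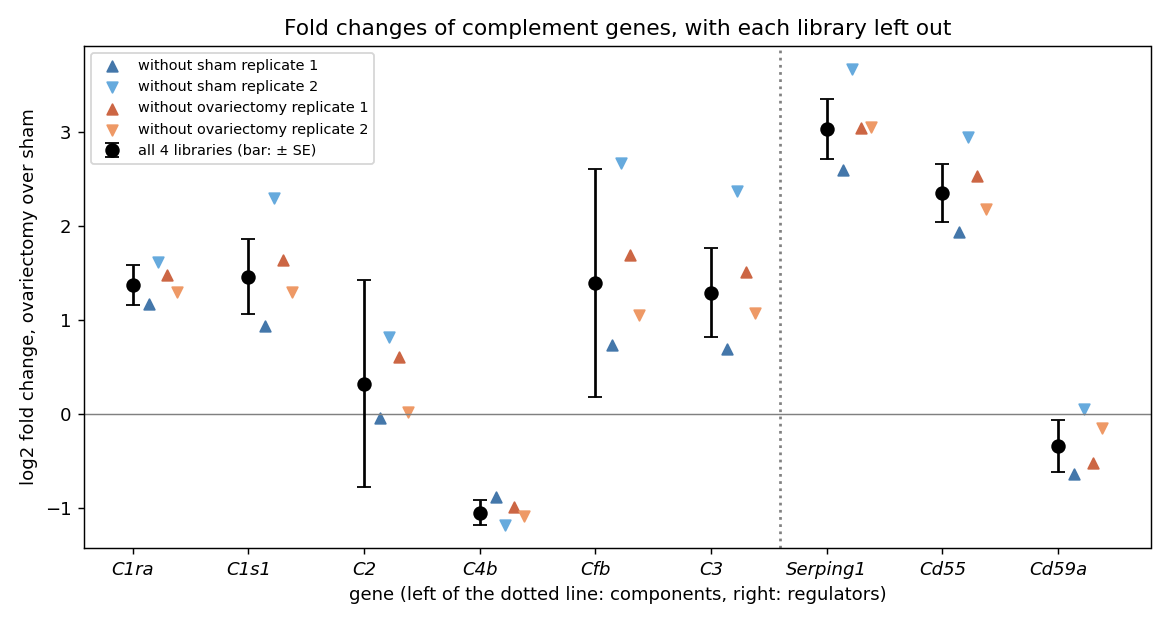
Log2 fold change (ovariectomy over sham) of the 9 genes from edgeR, black points with bars of ± SE for all 4 libraries and triangles for fits with 1 library left out. Serping1, Cd55, C1ra and C4b stay on their side of 0 in every fit, while C2 and Cd59a cross it and C3 runs from 0.69 to 2.37.

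Ordered by level per kb of exon, C4b and Serping1 led in every library. C4b was 2.56 times the next gene, Serping1, in sham 1, and in sham 2 they were level (Serping1 over C4b 1.01). In ovariectomy 1 and 2 Serping1 stood 11.8 and 11.0 times above C4b. C2 and Cfb were last in all 4 libraries. Cd59a, the next after C4b and Serping1 in sham libraries, was behind Cd55 and C1ra in both ovariectomy libraries.

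Summed over roles, the 6 components were at 439 and 389 CPM in the sham pair against 266 and 300 CPM in the ovariectomy pair. The 3 regulators were at 97.4 and 195 CPM in the sham pair against 966 and 979.5 CPM in the ovariectomy pair. Regulator over component CPM of these genes was 0.222 and 0.501 in the sham pair and 3.63 and 3.27 in the ovariectomy pair. These sums are set by C4b and Serping1. Serping1 made up 67.8% to 71.0% of the 3 regulators in sham and 85.2% to 87.4% after ovariectomy. The 16 other complement regulators summed to 1055 and 1543 CPM in the sham pair against 1127 and 1253 CPM in the ovariectomy pair. Those groups overlapped, and each value was above that of the 6 components in the same library. The ratio therefore holds for the 3 regulators only and does not describe all complement regulators. The smallest two-sided p that an exact permutation test of 2 against 2 libraries can give is 0.333, so no p is given for a sum or ratio.

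**Figure D3:**
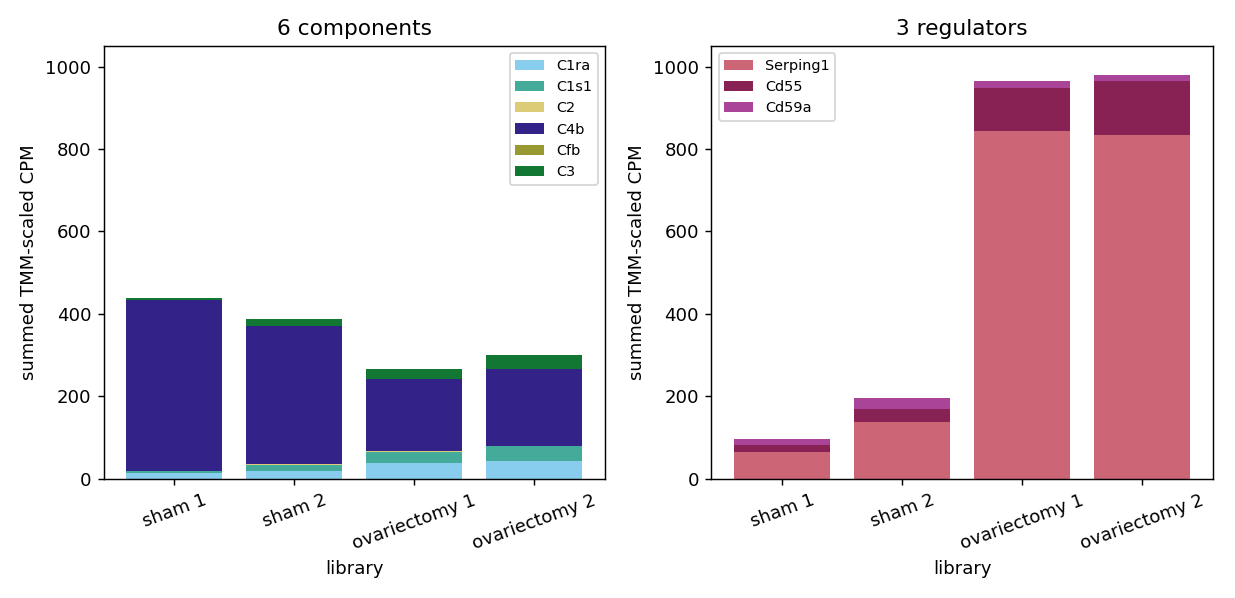
Stacked bars of TMM-scaled CPM per library on a common axis from 0, for the 6 components (left) and the 3 regulators (right). The component bars, mostly C4b, are lower and the regulator bars, mostly Serping1, are higher in both ovariectomy libraries.

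Within each pair, most members were higher in the same library. Sham 2 was above sham 1 for 8 of 9 members, C4b being the exception, against 49.9% of all genes tested. The ratio of sham 2 to sham 1 ran from 0.811 for C4b to 3.99 for Cfb. Ovariectomy 2 was above ovariectomy 1 for 7 of 9 members, against 49.7% of all genes tested, and the ratio ran from 0.769 for Cd59a to 1.56 for Cfb. For the 6 members with both ovariectomy libraries above both sham libraries, sham 2 stood between sham 1 and the ovariectomy libraries.

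Sequence upstream of the start site is shown for C3, C1s1 and Cd55, whose level was higher in both ovariectomy libraries and whose RefSeq start (the outer of 2 for C1s1) is also the GENCODE start. RefSeq promoters (GRCm38.p6) were held for 5 of the 9 members, with no entry for C2, C4b, Cfb and Serping1. Each line gives the 250 bases before the start, 5′ to 3′ on the strand of the gene, here the minus strand, at chr17:57228137-57228386, chr6:124542360-124542609 and chr1:130462745-130462994. Capitals mark matches on either strand, in C3 and C1s1 to the relaxed C/EBP motif TTNNGNAA and in Cd55 to the relaxed NF-kB motif GGGNNNTTC.
C3: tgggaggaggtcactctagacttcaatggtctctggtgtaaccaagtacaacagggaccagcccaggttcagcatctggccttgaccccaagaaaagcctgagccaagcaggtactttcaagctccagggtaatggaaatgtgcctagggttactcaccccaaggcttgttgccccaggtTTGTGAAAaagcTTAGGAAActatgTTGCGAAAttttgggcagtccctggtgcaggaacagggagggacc
C1s1: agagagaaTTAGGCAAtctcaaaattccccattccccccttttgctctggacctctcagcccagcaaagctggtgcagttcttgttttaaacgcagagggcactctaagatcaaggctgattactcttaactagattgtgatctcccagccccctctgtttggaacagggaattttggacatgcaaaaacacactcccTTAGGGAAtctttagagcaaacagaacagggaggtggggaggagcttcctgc
Cd55: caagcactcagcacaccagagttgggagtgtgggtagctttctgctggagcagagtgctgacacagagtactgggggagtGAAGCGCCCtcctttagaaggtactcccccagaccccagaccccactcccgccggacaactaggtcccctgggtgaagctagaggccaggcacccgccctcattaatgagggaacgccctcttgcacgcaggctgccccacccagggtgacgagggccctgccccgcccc
The C3 window held 3 matches, all within 70 bases of the start, the C1s1 window 2 and the Cd55 window none of the C/EBP motif. At least 1 such match was present in 36.8% and 3 or more in 2.61% of 32851 promoter windows of the same length. None of the 3 windows held the interferon motifs TTCNNNGAA (7.02% of windows) or GAAANNGAA (7.13%), the AP-1 motif TGANTCA (6.75%) or the oestrogen response element, GGTCA and its reverse complement 3 bases apart (0.0639%). The NF-kB letters were found once, in the Cd55 window, and in 11.8% of all windows. The NF-kB motif and the second interferon motif were searched first in forms 1 base longer (a C and an A added at the 3′ end), which 4.65% and 2.98% of windows held and none of these 3 did, so the Cd55 match rests on the shorter form, taken after that search. A match describes the letters and does not show a bound site. No motif match overlapped another.

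No further complement gene passed. Of 49 other complement genes, 27 were tested and edgeR called none (4, or 14.8%, at an unadjusted p under 0.05, against 18.4% of all genes tested, 1 called with the DESeq2 test and 0 with limma-voom). Their median log2 fold change was 0.52, also with Cfd, which had no sham count, at its bound. Clu, clusterin, was at 628 and 1018 CPM in the sham pair against 692 and 775 CPM in the ovariectomy pair. Its log2 fold change was -0.17 ± 0.21 SE, or -0.47 without sham 1. Cr1l (Crry), a rodent membrane regulator of C3 cleavage, was at 75.3 and 65.9 CPM against 78.8 and 83.2 CPM after ovariectomy. C1qbp, a C1q-binding protein found mostly in mitochondria, had a log2 fold change of 0.32, the protease gene C1rl one of 0.16 and Cfp, properdin, which steadies the alternative enzyme, one of 0.52. None of these 5 passed.

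Upstream recognition and downstream pore genes were low. The recognition genes summed to 5.58 and 4.94 CPM in the sham pair and to 13.4 and 15.1 CPM in the ovariectomy pair, with 0 of 6 tested called. The group of C4a, properdin, C5 and the pore proteins summed to 10.1 to 15.4 CPM over the 4 libraries, with 0 of 5 tested called. Receptors of complement fragments, without C1qbp, summed to 9.32 and 7.97 CPM in the sham pair and to 8.71 and 14.3 CPM in the ovariectomy pair, so the groups overlapped, with 0 of 3 tested called. Cfi, the protease of C3b and C4b, and Mbl1, a lectin of the recognition step, had 0 counts in all libraries, which allows up to 0.156 CPM per library.

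**Figure D4:**
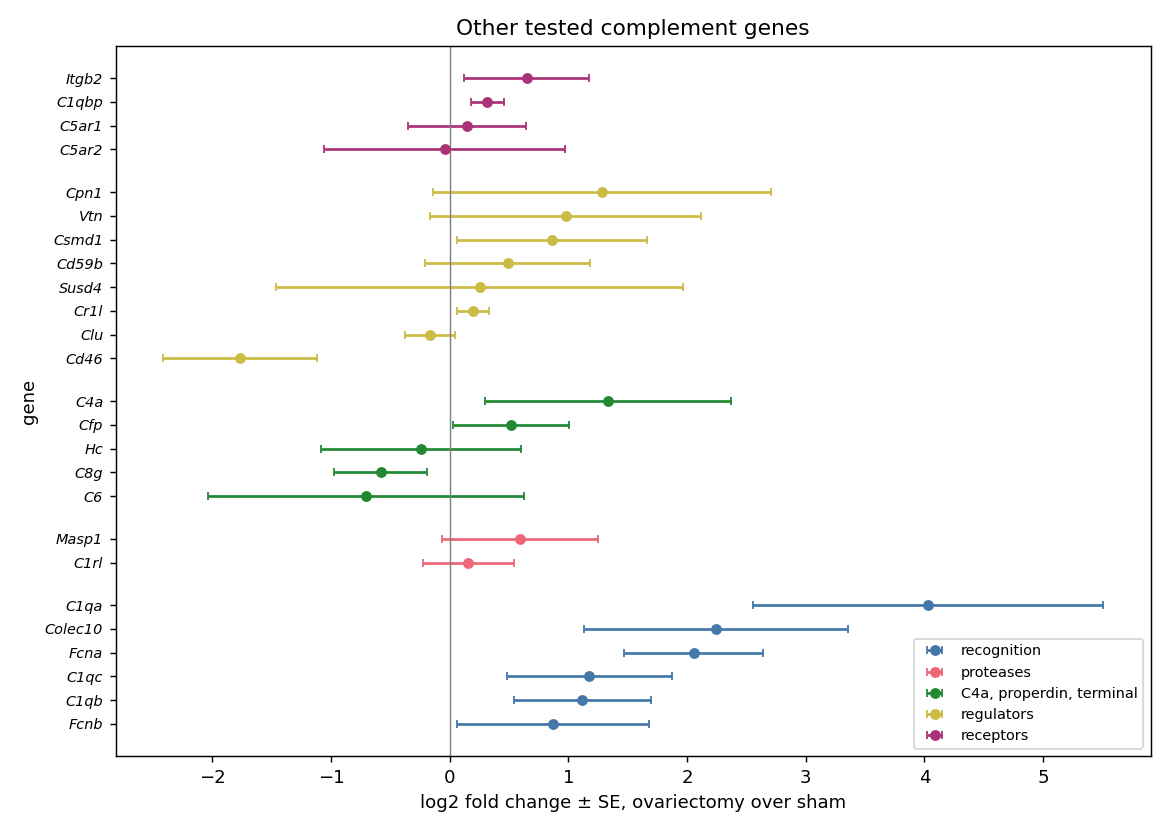
Log2 fold change ± SE (ovariectomy over sham, edgeR) of the tested complement genes outside the 9 members reported here and with counts in both groups, coloured by role. The abundant regulators Clu and Cr1l lie within 0.2 of 0, and no gene shown passed.

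Genes known to drive complement expression were higher in part. Of 21 tested, 6 rose and 0 fell, against 2.98% called higher and 1.20% called lower of all genes tested. The list was chosen with earlier results of these data known, so these shares are no independent test. Their median log2 fold change was 0.52, against -0.02 over all genes tested. Cebpb, a C/EBP factor of the acute-phase response, was at 47.1 and 53.0 CPM in the sham pair against 123 and 104 CPM in the ovariectomy pair, a 2.27-fold rise (edgeR adjusted p = 0.00707). Its relative Cebpd rose 1.80-fold (0.0386), Rela, an NF-kB subunit, 1.80-fold (0.0114) and Osmr, the oncostatin M receptor, 1.45-fold (0.0484). Il6, which acts through Stat3, and the interferon factor Irf1 were the other 2 that rose. Cebpb and Cebpd share 20.7% and 15.0% of their exon length with other genes. Ifng, encoding interferon gamma, had no count in any library. All 6 calls were lost without ovariectomy 1 or ovariectomy 2, as no gene passed there.

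Markers of other cells moved with the groups. In bulk RNA, fewer cells of a type and less RNA per cell cannot be told apart. Beside the rise of Serping1, Cd55 and C1ra, 8 of 12 fibroblast markers were called higher (summed CPM 5306 to 7776 in sham and 7154 to 7720 after ovariectomy, which overlap), 4 of 12 markers of LepR marrow stroma (359 to 516, then 1314 to 1642) and 3 of 9 tested pericyte markers (308 to 343, then 596 to 632). Of all genes tested, 2.98% were called higher and 1.20% lower, but the marker lists too were chosen with earlier results of these data known. The overlap of the fibroblast sums rested on the most abundant marker of that list, Dcn. It was at 4033 and 6380 CPM in the sham pair against 5536 and 6181 CPM in the ovariectomy pair, not called. Without Dcn the sums were 1273 and 1396 CPM in the sham pair against 1619 and 1539 CPM in the ovariectomy pair. Much of that remainder was Lum, which went the other way without being called. Lum was at 1136 and 1195 CPM in the sham pair against 984 and 850 CPM in the ovariectomy pair. The pericyte sum turned on Rgs5, at 5.66 and 46.4 CPM in the sham pair against 295 and 361 CPM in the ovariectomy pair. Without Rgs5 the pericyte list summed to 303 and 297 CPM in the sham pair against 301 and 271 CPM in the ovariectomy pair. Its most abundant marker, Cspg4, was at 284 and 266 against 214 and 222 CPM. The called markers of LepR stroma were Igfbp5, Igfbp4, Cxcl12 and Vcam1. Lepr itself was at 20.3 and 27.2 CPM in the sham pair against 23.4 and 32.7 CPM in the ovariectomy pair. Its groups overlapped (edgeR adjusted p = 0.697). Without Igfbp5 the LepR stroma list summed to 249 and 350 CPM in the sham pair against 750 and 891 CPM in the ovariectomy pair. No endothelial marker of 12 (44.5 to 124, then 136 to 171) and no macrophage marker of 9 tested (65.9 to 79.1, then 104 to 144) was called. Beside the fall of C4b, 10 of 12 chondrocyte markers were lower (148500 to 157500 in sham, 83400 to 94490 after ovariectomy), as were 5 of 12 osteoblast markers, with 1 higher (84620 to 114000, then 69350 to 75640). Of blood cell markers, 3 of 9 tested erythroid (29.6 to 49.55, then 139 to 177), 2 of 10 granulocyte (89.4 to 139, then 184.5 to 289.8) and 1 of 5 tested lymphocyte markers (6.07 to 6.68, then 11.5 to 18.3) were higher. Among all these lists, the lymphocyte marker Cd8a alone was at 0 in all libraries. Without the gene of largest difference in CPM, the summed groups also overlapped for granulocyte (without Mpo, 88.9 to 136 in sham, then 126 to 179.5) and endothelial markers (without Eng, 22.9 to 71.55, then 60.6 to 87.99). The part of these cells in the complement values was not tested. Of 6 hepatocyte markers 2 were tested and neither was called. Serpina1a was at 257 to 289.7 CPM in sham and 155 to 194 CPM after ovariectomy (edgeR adjusted p = 0.0605), Alb at 0.0892 to 0.550 CPM, and Ttr had 1 count over all 4 libraries.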

How the data were processed

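Per the labels' protocols, cells were sorted after collagenase digestion, TRIzol was used to extract RNA and a SMARTER mRNA kit to build libraries. The submitters' processing notes name Trim Galore 0.6.6, featureCounts 2.0.1 and the build GRCm38 (mm10). The authors deposited raw read counts per Ensembl gene, not normalized. Aligner, annotation release, strand setting and handling of shared reads were not given in the sources used here. GENCODE M21 named 55227 of 55487 gene IDs and gave positions and exon lengths. Genes were kept by filterByExpr, scaled by TMM and compared with the two-sided quasi-likelihood test of edgeR 4.0.16 in R 4.3.3 with group as the only term and Benjamini-Hochberg adjustment over 17120 genes. The SE is the log2 fold change divided by the square root of F. Alternatives were other scalings, DESeq2 1.42.0, limma-voom (limma 3.58.1), other filters, a replicate block and leaving out each library. With 0 counts, 3 counts per library are allowed for. Shared sequence was measured as 50-base stretches of GENCODE transcripts. Named genes are the 9 members, other complement genes that were called or were the 6 most abundant uncalled ones, called inducers, and copies or neighbours of members. Some genes that this rule or the lists hold are not reported here. The members and lists were chosen with earlier results of these data known.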

Additional observations from a re-analysis of the deposited data

How the results depend on the processing

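Of 106 alternative values for the 9 members, 85 kept their direction and their side of the threshold, 11 passed where the reported test did not, 8 no longer passed and 2 changed sign. The 2 were the log2 fold changes of C2 without sham 1 (-0.042) and of Cd59a without sham 2 (0.055). C1s1 passed with DESeq2 (log2 fold change 1.46), limma-voom (1.59), no filter (1.47), a mean of 5 CPM (1.45) and the replicate block (1.59), and C3 with DESeq2 (1.29), no filter (1.30) and the replicate block (1.48). The cause was not tested. Members called higher numbered 5 with DESeq2, the replicate block or no filter. C2 and Cfb have no value at a mean of 5 CPM. With 1 library left out, log2 fold changes ran from 1.17 to 1.62 for C1ra, 0.94 to 2.30 for C1s1, -0.04 to 0.82 for C2, 0.69 to 2.37 for C3, -1.18 to -0.89 for C4b, 0.73 to 2.67 for Cfb, 2.60 to 3.68 for Serping1, 1.94 to 2.96 for Cd55 and -0.64 to 0.05 for Cd59a. Members called higher then numbered 0 to 5 and lower 0 to 1. An arm left with 1 library is assumed to vary like the other. Other complement genes called higher numbered 1 (Cfd) with library totals, DESeq2, no filter and the replicate block, and 0 to 3 with 1 library left out, where 0 to 1 were lower. Over all genes, DESeq2 called 930 higher and 486 lower, no filter 1112 and 544, limma-voom 313 lower, a mean of 5 CPM 406 lower and the replicate block 329 lower. Leaving out 1 library gave 0 to 1277 higher and 0 to 558 lower genes. Without ovariectomy 1 or 2, 1788 and 1618 genes had an unadjusted p under 0.05. The replicate numbers stand in the titles only, and deviations of same-numbered libraries correlated with 0.0173. With 2 libraries per group this value can neither show nor exclude pairing, so the replicate block is given as an alternative only. C2 and Cfb had at most 14 counts in a library, and their ratios carry wide counting intervals.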

Other observations

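Of the complement genes outside the 9 members, 4 had an unadjusted p under 0.05 in edgeR without passing the adjustment, a share (14.8%) below that of all genes tested (18.4%), and they are named here after their values were seen. Cfd, factor D or adipsin, the protease that activates factor B and a product of fat cells, had 0 counts in both sham libraries and 58 and 16 in ovariectomy 1 and 2. Against a floor of 3 counts per sham library, the mean of ovariectomy 1 and 2 (2.45 and 0.831 CPM) was at least 12.3-fold higher (edgeR adjusted p = 0.0573). The bound holds for the mean, not for each library. Fcna, a ficolin of the lectin pathway, had 19 counts in each sham library and 61 and 87 in those after ovariectomy, a ratio of 4.07 (exact 95% interval 2.84 to 5.98, counting error only, edgeR adjusted p = 0.112). C1qa, a chain of C1q that macrophages make, had 3 and 0 counts in sham and 18 and 31 after ovariectomy, a ratio of 17.1 (5.51 to 85.7, edgeR adjusted p = 0.201). The other C1q chains, C1qb and C1qc, had ratios of 2.17 (1.55 to 3.07) and 2.27 (1.59 to 3.30), counting error only. Neither passed (edgeR adjusted p = 0.375 and 0.4435). Cd46, a membrane regulator found in mice mainly in the testis, was the one of the 4 with a lower value after ovariectomy, with 68 and 51 counts in sham and 23 and 11 in the ovariectomy libraries (ratio 0.299, 0.198 to 0.441, edgeR adjusted p = 0.204). Cd46 shares 14.2% of its exon length with other genes.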
